A study of Rattus norvegicus with 2 samples.

Results

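The metallothioneins and the genes around zinc export were examined in the hypothalamic paraventricular nucleus of adult rats. The members were 7 genes: the metallothioneins Mt1a, Mt2A and Mt3, the transporters Slc30a1, Slc30a3 and Slc30a10, and the transcription factor Mtf1. Every non-control probe carrying 1 of these gene names in the scanner files was taken, which gave 8 of 30367 probes and 26 of 42877 spots. All 7 genes were measured on both arrays, among 14175 genes that were. The study addressed hypertension programmed before birth. The array called dexamethasone below held total RNA of the nucleus of 12-week-old male Sprague Dawley offspring whose mothers received 200 µg/kg of this synthetic glucocorticoid in the third trimester. The control array held RNA of offspring of the same strain, sex and age from vehicle-treated mothers. The labels do not say how many animals gave the RNA of an array.

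There was 1 array per group, so no difference below has a replicate check or a p-value, and the number of arrays limits the precision. The arrays sat at different positions of 1 slide, which means that position and treatment cannot be told apart. In such bulk tissue, fewer cells of a type and less RNA per cell cannot be told apart either. Treatment and a difference in the tissue taken at dissection cannot be told apart in the same way. Markers of other brain regions, given below, differed between the arrays. Probes well above background made up 78.2% of probes on the dexamethasone array and 79.5% on the control array. A difference is the log2 signal of the dexamethasone array minus that of the control array, after the 75th percentile of each array was subtracted, and it is called a size difference where it reaches 2-fold. Signals are processed intensities before that scaling.

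Metallothioneins are small cysteine-rich proteins that bind zinc and copper and buffer free zinc in the cytosol. When zinc rises, the zinc-finger factor encoded by Mtf1 binds metal response elements before the mouse counterparts of Mt1a, Mt2A and Slc30a1 and raises their transcription. Glucocorticoids and oxidants also induce Mt1a and Mt2A in many tissues. In brain Mt1a and Mt2A are expressed mainly by astrocytes and other non-neuronal cells, and Mt3 is the brain-enriched form. Proteins of the Slc30 family (ZnT) move zinc out of the cytosol: Slc30a1 sits in the plasma membrane, Slc30a3 loads zinc into synaptic vesicles of forebrain glutamatergic neurons, and Slc30a10 is best known, from human and mouse, as a manganese exporter.

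The 2 Mt2A probes and the Mt1a probe are shown because the metallothioneins are similar in sequence and the values turn on which transcript each probe reads. The first 30 of the 60 bases of each are given, 5′ to 3′, as in the scanner files.
Mt2A, probe starting at base 300 of the transcript, 10 spots: ttttttgtacaaccctgaccggttctccac
Mt2A, probe starting at base 95, 1 spot: tcctgctcctgcgctggctcctgcaaatgc
Mt1a, probe starting at base 329, 1 spot: cccagtttactaaaccccgttttctaccga
The longest run of bases shared by the Mt1a probe with either Mt2A probe was 7, and over all pairs of member probes it was 9, between Mt1a and Mt3. Pairing of these probes with transcripts of other genes, the other metallothioneins included, was not analysed here. The shared runs compare probes only, so they do not show that a probe reads 1 transcript alone. In rn4 coordinates of the files, the Mt2A probes lay on the minus strand of chromosome 19 at 11267834 to 11267893 and at 11268168 to 11268227, the Mt1a probe at 11261631 to 11261690 and the Mt3 probe at 11284627 to 11284686. Each of these covers 60 genomic bases without a gap, so no intron interrupts it. The Mtf1 probe covers 3269 bases of chromosome 5 (144172266 to 144175534), so it bridges an intron.

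The 250 bases before the annotated transcript start are shown for the 3 metallothioneins, for Slc30a1 and for Slc30a3, because Mt1a, Mt2A and Slc30a1 are known targets of the Mtf1 protein in mouse, Mt3 is their brain-enriched relative and Slc30a3 had the largest difference. They are from RefSeq, build GRCr8, 5′ to 3′ on the strand of the gene. Capitals mark the core of the metal response element, TGCACNC or TGCGCNC, on either strand.
Mt1a, chr19:10832976-10833225 (-): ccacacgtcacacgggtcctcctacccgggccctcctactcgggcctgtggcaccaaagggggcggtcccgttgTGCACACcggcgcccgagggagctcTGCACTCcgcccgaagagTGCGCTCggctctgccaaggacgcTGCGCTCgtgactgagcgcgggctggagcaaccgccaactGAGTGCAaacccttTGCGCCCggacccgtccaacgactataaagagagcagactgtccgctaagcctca
Mt2A, chr19:10838709-10838958 (-): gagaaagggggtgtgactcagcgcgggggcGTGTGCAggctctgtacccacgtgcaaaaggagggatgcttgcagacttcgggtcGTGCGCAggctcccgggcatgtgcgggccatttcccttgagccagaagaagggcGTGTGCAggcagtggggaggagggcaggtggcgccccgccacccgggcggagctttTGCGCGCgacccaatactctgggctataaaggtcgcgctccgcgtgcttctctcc
Mt3, chr19:10856081-10856330 (-): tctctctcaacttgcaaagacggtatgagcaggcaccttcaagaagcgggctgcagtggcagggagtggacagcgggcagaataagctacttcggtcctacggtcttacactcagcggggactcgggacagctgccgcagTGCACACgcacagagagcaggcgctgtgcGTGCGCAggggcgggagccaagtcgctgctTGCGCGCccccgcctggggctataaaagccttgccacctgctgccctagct
Slc30a1, chr13:106021769-106022018 (+): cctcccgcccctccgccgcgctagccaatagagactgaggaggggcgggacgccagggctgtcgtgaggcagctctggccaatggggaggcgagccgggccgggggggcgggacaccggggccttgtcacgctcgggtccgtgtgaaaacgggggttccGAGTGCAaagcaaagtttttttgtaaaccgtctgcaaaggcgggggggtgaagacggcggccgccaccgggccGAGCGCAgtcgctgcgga
Slc30a3, chr6:30997164-30997413 (+): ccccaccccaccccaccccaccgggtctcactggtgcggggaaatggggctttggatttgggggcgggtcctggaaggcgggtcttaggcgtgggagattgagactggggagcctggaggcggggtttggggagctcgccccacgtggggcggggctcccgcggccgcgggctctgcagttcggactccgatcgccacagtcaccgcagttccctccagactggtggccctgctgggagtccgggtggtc
The Mt1a window held 6 copies of the core, the Mt2A window 4, the Mt3 window 3 and the Slc30a1 window 2, with no overlapping copies. The Slc30a3 window held 0. Of 33469 windows of the same length in the RefSeq table, 20.6% held at least 1 copy, 4.9% at least 2, 1.17% at least 3, 0.266% at least 4 and 0.0269% at least 6. The Mtf1 window, not printed, held 2 copies. The motif AGAACA, which the glucocorticoid receptor can bind, was in none of the 5 printed windows, was in the Mtf1 window 1 time, and was in 17.5% of all windows. The window of Slc30a10 was not used here. These matches describe letters in a window and are not binding sites measured here.

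**Figure D1:**
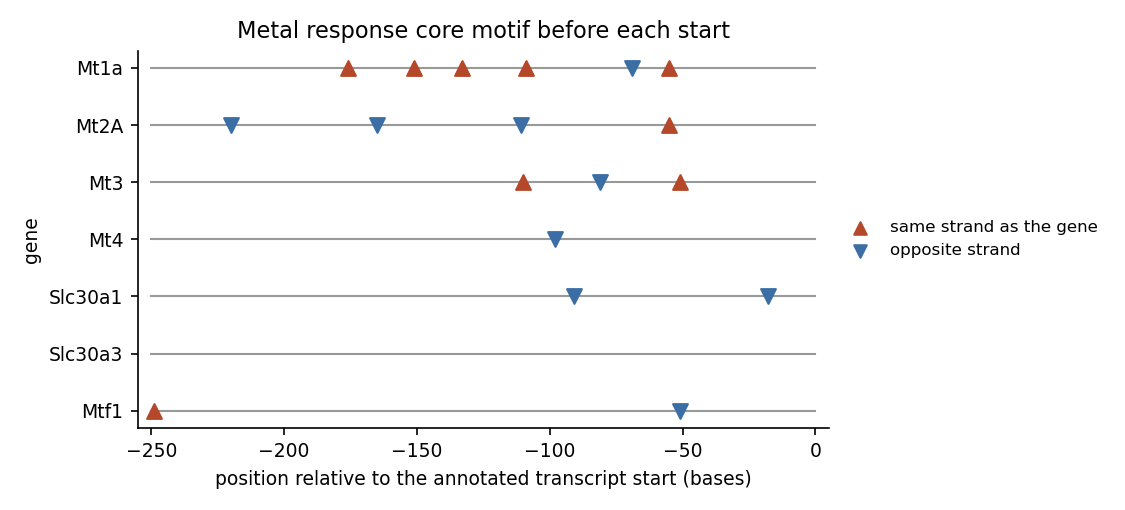
Copies of the metal response core motif before the annotated transcript start of 6 members and of the related gene Mt4, on the strand of the gene (upward triangles) or the opposite strand (downward triangles); the x axis is the position in bases relative to the start. Mt1a has 6 copies, all within 176 bases of the start, Mt2A has 4, Mt4 has 1 and Slc30a3 has 0.

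Among the metallothioneins, Mt2A was the member with a size difference. Mt2A, an inducible zinc buffer, had a signal of 12710.9 on the dexamethasone array, against 2906.51 on the control array, on the probe spotted 10 times. Its 10 spots had a lowest, median and highest signal of 12173, 12805 and 13195 on the dexamethasone array, and of 2695, 2935 and 3000.1 on the control array. The spots of the arrays did not overlap, and all 10 spot pairs were higher on the dexamethasone array. The difference was 2.05 (4.15-fold higher), with an SD of 0.025 between the 10 spot pairs, which share their RNA and are no replicates of the treatment. On the other Mt2A probe, nearer the start of the transcript, the signal was 5791.21 on the dexamethasone array, against 2106 on the control array, a difference of 1.38 (2.61-fold higher). Both probes put Mt2A past 2-fold, but they differed from each other by 0.67, more than the SD between spots and more than the software error of 0.20 for the single spot.

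**Figure D2:**
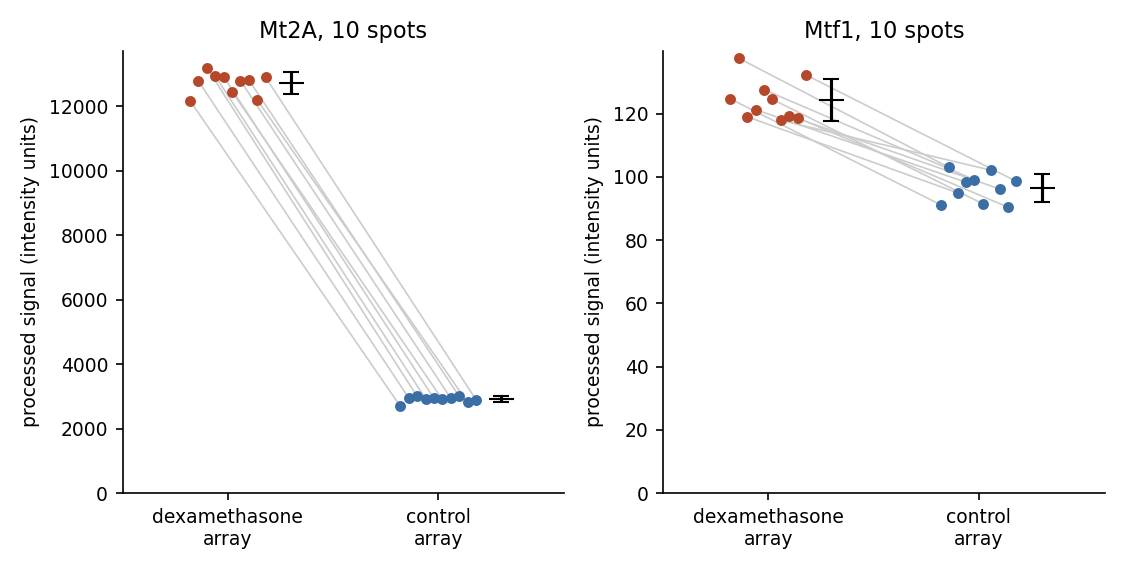
Processed signal of each spot of the 2 member probes printed 10 times, with lines joining the same spot on the dexamethasone and control arrays, and with the mean and SD over 10 spots beside the points; both y axes start at 0. The Mt2A spots of the dexamethasone array lie between 12173 and 13195 and those of the control array between 2695 and 3000.1, and the Mtf1 spots also separate, by a much smaller step.

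Mt1a, the other inducible form, had a signal of 5959.79 on the dexamethasone array, against 3056.74 on the control array. The difference was 0.89 (1.85-fold higher), below the 2-fold size, and the error that the scanner software gives for a single spot propagates to 0.20 on this log2 scale. That error was 0.20 for every single-spot member probe except that of Slc30a10, so it is close to a fixed share of signal. It covers the spot and not the animals, and is no spread between measured spots. Mt3, the brain-enriched form, had signals of 81810 on the dexamethasone array and 73067 on the control array, a difference of 0.09 with a software error of 0.20. The sign for Mt3 turned to -0.01 under quantile normalization, cyclic loess and the deposited value table, so Mt3 has no settled direction. No spot of either array was saturated, the bright Mt3 spots included. Mt1a and Mt2A were thus both higher on the dexamethasone array, by unequal amounts, while Mt3 lay near equality. Whether Mt1a or Mt2A was induced was not tested.

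Mtf1, the zinc-sensing factor, had a small difference read from 10 spots. Its spots had a lowest, median and highest signal of 118, 123 and 137 on the dexamethasone array, and of 90.4, 97.2 and 103 on the control array. The groups of spots did not overlap, and all 10 pairs were higher on the dexamethasone array. The difference was 0.29 (1.22-fold higher), with an SD of 0.077 between spot pairs, and it was 0.16 with normexp background correction or with no correction.

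Of the transporters, Slc30a3 had the largest difference of the members. Slc30a3, the synaptic vesicle zinc transporter, had a signal of 14572.4 on the dexamethasone array, against 2872.45 on the control array, on 1 spot per array (rn4 chromosome 6, 25264735 to 25264794, plus strand). The difference was 2.27 (4.81-fold higher), with a software error of 0.20. The difference was far larger than that error, and the gene has no repeated spots.

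Slc30a1, the plasma membrane zinc exporter, had a signal of 357.422 on the dexamethasone array, against 200.661 on the control array (rn4 chromosome 13, 107983689 to 107983748, plus strand). The difference was 0.76 (1.69-fold higher), with a software error of 0.20, and it was 0.61 with normexp and 0.59 without background correction. Slc30a1 was thus on the same side as Mt1a and, like it, under 2-fold. Slc30a10 was the member on the other side: its signal was 10.0315 on the dexamethasone array, against 13.8066 on the control array (rn4 chromosome 13, 101491418 to 101491477, plus strand). The difference was -0.54, with a software error of 0.35. Both signals lie close to the lowest signal called well above background, 7.31 on the dexamethasone array and 6.53 on the control array, and the difference was -0.20 with normexp and -0.15 without background correction.

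**Figure D3:**
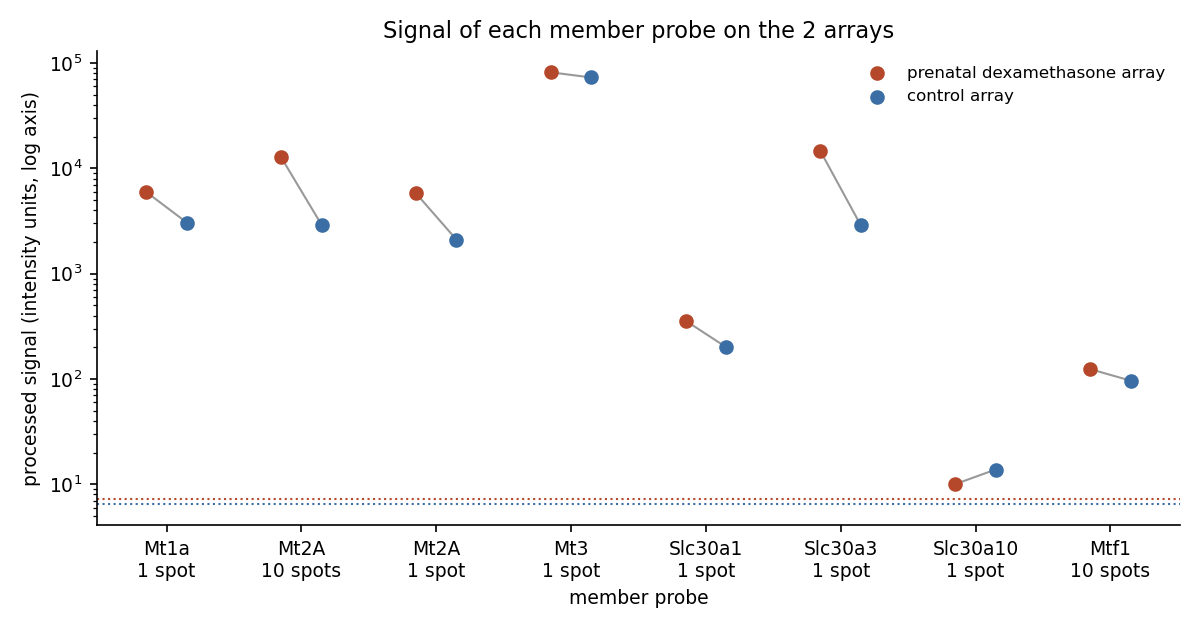
Processed signal of the 8 member probes on the dexamethasone array (left point of each pair) and the control array (right point), on a log axis; points of 10-spot probes are means of log2 signals, and dotted lines mark the lowest signal well above background on each array. Both Mt2A probes and Slc30a3 show the steepest steps, Mt3 is nearly level (with a sign that depends on the scaling), and Slc30a10 lies just above the dotted lines.

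Over the 7 members, 6 were higher and 1 was lower on the dexamethasone array, with a median difference of 0.76. The 6 include Mt3, whose sign depended on the normalization. Of all 14175 measured genes, 7275 were higher and 6900 lower. Among the members, 2 passed 2-fold upward (Mt2A and Slc30a3) and 0 downward. The same 2-fold size was passed upward by 3.37% and downward by 2.38% of all 14175 measured genes, whose median difference was 0.01. Among the 4725 measured genes of the brightest signal, which hold Mt1a, Mt2A, Mt3 and Slc30a3, the shares were 2.01% upward and 0.741% downward. Ordered from the highest difference, Slc30a3 was at rank 91 and Mt2A at rank 113 of 14175 genes, Mt1a at 567, Slc30a1 at 693, Mtf1 at 2545, Mt3 at 5475 and Slc30a10 at 12971. These ranks describe these 2 arrays. Repeated spots give the error between spots of the same 2 arrays, which leaves out error between labellings, hybridisations and animals. Probes within 0.5 log2 of the signal of Mt1a had a median spot SD of the difference of 0.030, of Slc30a1 0.061 and of Slc30a10 0.31. Mt1a and Slc30a1 stood outside this error between spots, and Slc30a10 did not stand clearly outside it. The 2 Mt2A probes differed by 0.67, so spot SD also leaves out differences between probes of a gene.

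**Figure D4:**
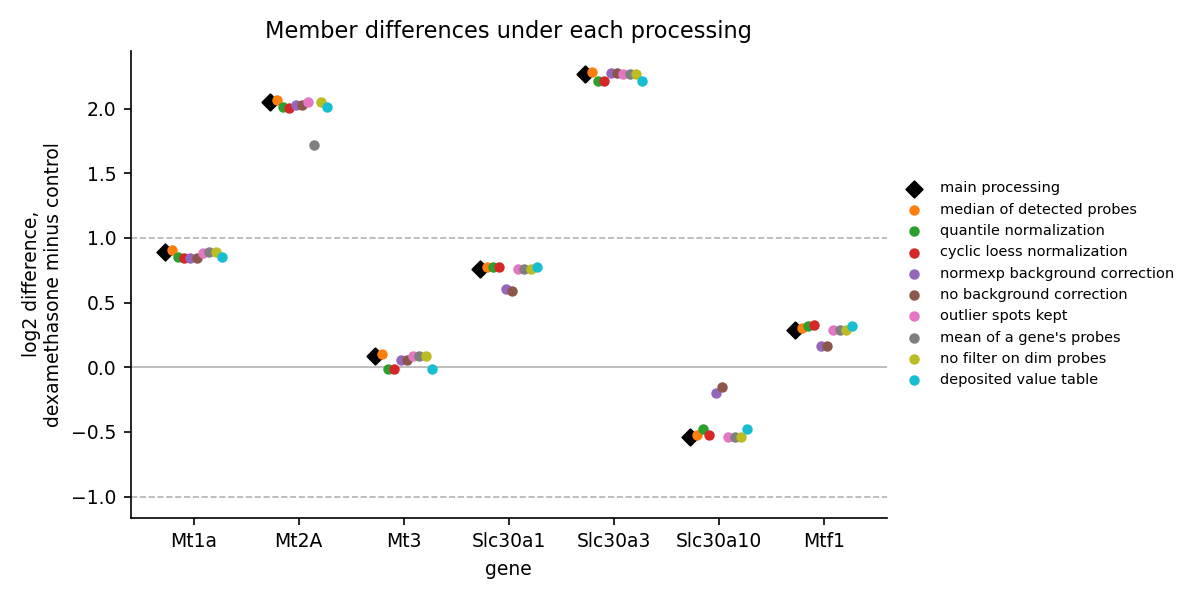
Log2 difference (dexamethasone minus control) of each member under the main processing (diamonds) and 9 alternatives (circles), with dashed lines at 2-fold. Mt2A and Slc30a3 stay above the upper line in all of them, Mt1a and Slc30a1 stay between 0 and that line, and Mt3 changes sign in 3.

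Of the other zinc transporters measured, 1 passed 2-fold on its brightest probe, downward. Beside it stand 3.37% upward and 2.38% downward of all measured genes, and so small a count cannot be set apart from those shares. Of 5 other measured Slc30 exporters, which serve the secretory pathway, vesicles and other compartments, 0 reached 2-fold in either direction and the median was -0.13. Slc30a7, a transporter of the Golgi, had signals of 68.0 on the dexamethasone array and 75.3 on the control array, a difference of -0.22, and was the farthest from 0. Slc30a9 and Slc30a6 were both at -0.13. On both arrays Slc30a2 and Slc30a8 were not well above background.

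Of 12 measured zinc importers of the Slc39 (ZIP) family, 0 were at least 2-fold higher and 1 was at least 2-fold lower, with a median of -0.01. That gene was Slc39a5, a basolateral importer of epithelia, with a signal of 34.3 on the dexamethasone array, against 91.5 on the control array. Its difference was -1.49, and -0.83 with normexp, which ends the 2-fold call. Slc39a14, an importer of zinc and iron, was at -0.17 on its brighter probe but -1.93 on the other, so that 2 importers were at least 2-fold lower by the mean of a gene's probes (Slc39a14 was chosen after its values were seen). Slc39a4, the importer of dietary zinc in the intestine, had signals of 293 on the dexamethasone array and 143 on the control array, a difference of 0.95. Slc39a12, an importer best known in brain, had signals of 397 on the dexamethasone array and 534 on the control array, a difference of -0.50. The importers thus had single members far from 0 on either side and a list median near 0.

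The measured genes of the copper and iron list and of the oxidant-response list lay within 2-fold. Of 14 copper and iron genes, 8 were higher and 6 lower, with a median of 0.07. Cp, the ferroxidase ceruloplasmin, was at 0.79, with its 3 probes between 0.66 and 0.85, from signals of 830 on the dexamethasone array and 454 on the control array. Slc40a1, the iron exporter ferroportin, was at -0.73, and Atp7b, a copper pump, at 0.55 on its brighter probe but -0.28 on the other. Of 10 oxidant-response genes 8 were higher, with a median of 0.06. Among these, Srxn1, which repairs oxidised peroxiredoxins, was at 0.39, the cystine transporter Slc7a11 at 0.35 and the glutathione synthesis enzyme Gclc at -0.11. Hmox1, a heme-degrading enzyme induced by metals and oxidants, was at 0.09 (chosen after its value was seen).

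Of 12 genes induced by glucocorticoids elsewhere, 8 were higher and 4 lower, with a median of 0.37. At least 2-fold higher were 3 of them and at least 2-fold lower 0, beside 3.37% and 2.38% of all measured genes. The 3 were Zbtb16, a zinc-finger factor, Fkbp5, a co-chaperone of the glucocorticoid receptor, and the sulfotransferase Sult1a1. Fkbp5 had a signal of 3815 on the dexamethasone array, against 1425 on the control array, a difference of 1.35. Sult1a1 was at 1.01, and at 0.95 with normexp. Zbtb16 was dim, with signals of 69.0 on the dexamethasone array and 13.6 on the control array, and its difference of 2.26 was 0.76 with normexp.

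Cell markers differed between the arrays beside these members. Of 8 measured telencephalic excitatory neuron markers, 8 were at least 2-fold higher on the dexamethasone array (5 with normexp or without background correction), with a median of 3.14, and their summed scaled signal was 21.2 on the dexamethasone array, against 1.70 on the control array. Neurod2, a transcription factor of cortical and hippocampal neurons, had the largest difference among them (4.66), and Slc17a7, the vesicular glutamate transporter of neurons that also use Slc30a3, was at 1.95 (0.95 with normexp). Tbr1, also in this list, was well above background on the dexamethasone array alone, and dim there (12.2, against 3.66 on the control array). These markers were higher on the same array as Slc30a3, and their part in its difference was not tested. Of 7 thalamic markers all 7 were lower, 3 of them at least 2-fold (median -0.91, summed scaled signal 59.0 on the dexamethasone array and 110 on the control array). Of 11 astrocyte markers, the cells that express most Mt1a and Mt2A, 8 were higher and 0 reached 2-fold on the brightest probe, with a median of 0.25 and summed scaled signals of 325 on the dexamethasone array and 308 on the control array. The brightest gene, Aldoc (signals of 287049 and 278576 in that order), weighs most in that sum, which is no measure of cell number. The 3 largest differences within that list were upward. The glutamate transporters Slc1a2 and Slc1a3 were at 0.76 and 0.45. The filament gene Gfap was at 0.73 on its brighter probe and 1.14, past 2-fold, on the other. The 3 lower markers were Gjb6 (-0.34), Aldh1l1 (-0.03) and Aldoc (-0.03). Beside these, Mt1a was at 0.89 and Mt2A at 2.05 and 1.38 on its 2 probes. The astrocyte part in the metallothionein values was not tested.

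Markers of other cells that can express metallothioneins were within 2-fold. The medians were -0.15 over 6 endothelial, 0.27 over 6 choroid plexus and ependymal, 0.08 over 6 microglial and 0.25 over 6 oligodendrocyte markers. Their summed scaled signals were 9.83, 251, 23.9 and 319 in that order on the dexamethasone array, against 10.8, 262, 22.4 and 303 on the control array. Such sums mostly follow their brightest genes, such as Ttr (-0.07) for choroid plexus and Mbp (-0.03) for oligodendrocytes. Of 5 measured markers of the paraventricular nucleus, Avp (-1.91) and Oxt (-1.38), its hormone genes, were at least 2-fold lower, Crh (1.39) was at least 2-fold higher, and the summed scaled signal was 1.87 on the dexamethasone array, against 4.13 on the control array. Trh, another hormone gene, was at -0.24. Sim1, which specifies the nucleus, was dim on both arrays (12.0 on the dexamethasone array and 14.1 on the control array). Otp was well above background on the dexamethasone array alone, but its signal of 8.26 there lay close to the lowest such signal, 7.31. Its signal on the control array was 1.92.

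**Figure D5:**
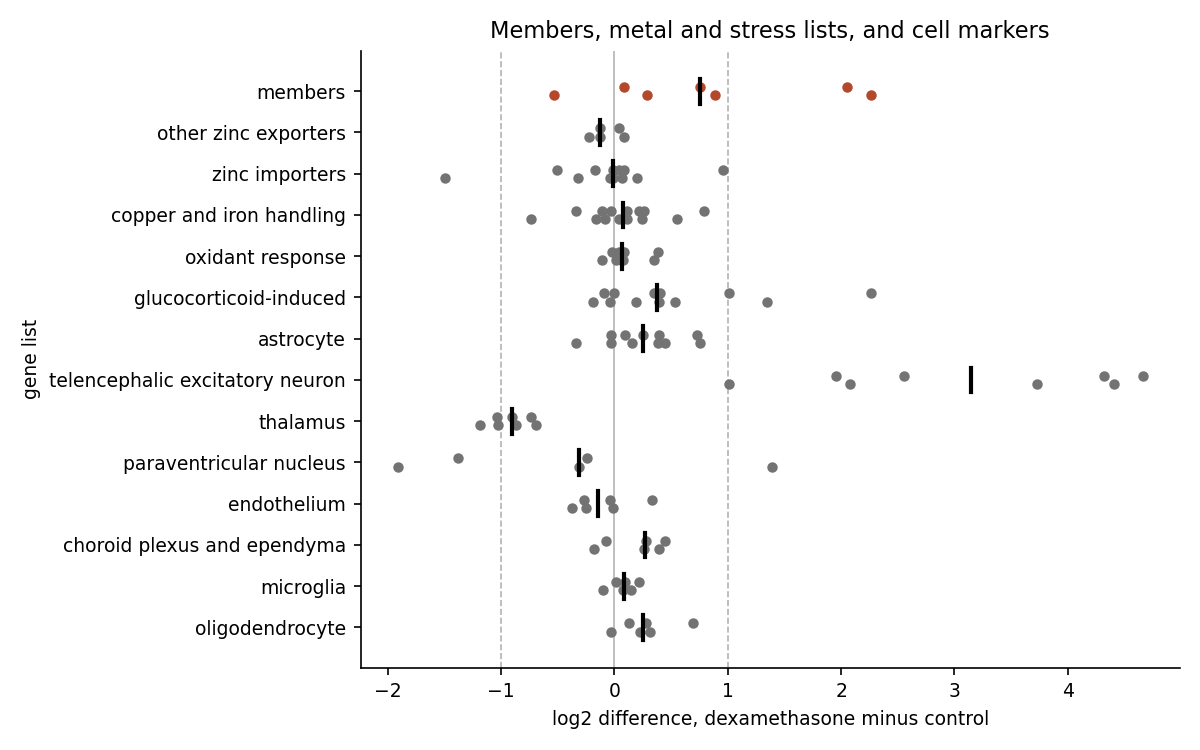
Log2 difference (dexamethasone minus control) of each measured gene in the members, the metal, oxidant and glucocorticoid lists and the cell marker lists; bars mark medians and dashed lines 2-fold. The other zinc exporters, importers and oxidant genes mostly lie near 0, and the telencephalic markers all lie at or beyond the upper 2-fold line under this processing.

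By closeness of both scaled log2 values, over 2 arrays, the nearest named gene to Mt2A was Npy (distance 0.14, difference 1.85), to Slc30a3 Cst6 (0.33, difference 1.81), to Mt1a Cap2 (0.08, difference 0.93), to Slc30a1 Tulp4 (0.02, difference 0.73), to Mt3 Rpl32 (0.04), to Mtf1 Dlgap5 (0.03) and to Slc30a10 Pilra (0.01). With 2 arrays many genes lie near any member, so these names describe neighbouring points only.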

How the data were processed

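Total RNA of the paraventricular nucleus was labelled with Cy3 and hybridised to 1-colour rat arrays, per the labels. Spot intensity in the deposited scanner files is linear and was quantified with Feature Extraction 10.7.1.1 per the file headers, whereas version 9.5.1.1 stands in the submitters' processing notes. The processed intensity is that software's background-subtracted, detrended value. The deposited value table holds further processed intensity with a median of 149.9 in both columns, which are labelled by sample. Its algorithm and centring stay unknown. Over all genes it gave the same 2-fold counts as quantile normalization (493 higher and 333 lower). Its differences had a correlation of 0.996 with the scanner differences across 23321 probes. Probe positions are those of rn4.

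Outlier spots were left out (249 dexamethasone, 267 control). Log2 processed intensities were averaged per probe and scaled by the 75th percentile of each array (1477 on the dexamethasone array and 1402 on the control array, as signal). A gene took its brightest probe well above background on both arrays. Names came from a GRCr8 RefSeq table (17998 probes by accession, 2654 by current and 559 by older symbol, 8 member probes by file name); 9148 probes without a match were not counted as genes. Quantile, cyclic loess and normexp alternatives (offset 50) used limma 3.58.1 in R 4.3.3; the remaining steps used Python 3.11.15. The averaging and scaling were tested on simulated data. With 1 array per group no test was made. Members and lists were chosen with earlier results of these data known. Named genes were every member and the gene nearest to each member. In each related list they were the 3 largest absolute differences and each gene past 2-fold. Genes of the marker lists are named as defining markers. The measured genes beside the metallothionein cluster are named for their position, and that look was not planned. Others are marked as chosen after their values were seen. A marker named in the design is not reported here and was left out of its list.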

Additional observations from a re-analysis of the deposited data

How the results depend on the processing

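The 2 members at least 2-fold higher (Mt2A and Slc30a3) and the 0 at least 2-fold lower kept those counts under all 9 alternatives. Not all 9 are separate checks. A member with 1 probe keeps its main value by the mean of probes and without the dim filter. The deposited value table gave nearly the values of quantile normalization. Mt2A ranged from 1.72 (mean of its probes) to 2.07, Slc30a3 from 2.21 to 2.28, Mt1a from 0.84 to 0.90, Slc30a1 from 0.59 to 0.78, Mtf1 from 0.16 to 0.33 and Slc30a10 from -0.54 to -0.15. Mt3 ranged from -0.01 to 0.10 and kept its sign in 6 of 9. The median over members was 0.61 with normexp and 0.59 without background correction, against 0.76. Over the metal, oxidant and glucocorticoid lists 4 genes passed 2-fold, against 1 with normexp and 1 without background correction, which shrink dim genes by construction, and 5 with the mean of a gene's probes or with no filter on dim probes. Over all genes the 2-fold counts were 478 higher and 338 lower (58.6% higher), 284 and 130 with normexp (68.6% higher), 280 and 133 without background correction (67.8% higher), and 870 and 732 with no filter on dim probes. No scaling moved the median of all genes by over 0.1. No paired analysis was possible because there was 1 array per group.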

Other observations

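The metallothionein genes Mt1a, Mt2A, Mt3 and Mt4 lie side by side on chromosome 19 in the order of the RefSeq gene table. Mt4, a form known from stratified epithelium and no member of the set above, was looked at after its value was seen. Its signal was 128 on the dexamethasone array, against 22.0 on the control array, a difference of 2.46. That difference was 1.11 with normexp and 1.02 without background correction, so its 2-fold call held in all 9 alternatives while its size depended on the background handling.

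Of the 4 protein-coding genes on each side of this cluster, 5 were measured, 1 higher and 4 lower on the dexamethasone array, with 0 past 2-fold. Nup93, a nuclear pore subunit next to Mt1a, was at 0.17, with signals of 1128 on the dexamethasone array and 954 on the control array. Bbs2, a cilium gene next to Mt4, was at -0.31, with signals of 822 on the dexamethasone array and 970 on the control array. Slc12a3, a sodium chloride cotransporter, was at -0.32, Ogfod1, an oxygenase, at -0.15 and Nudt21, an RNA cleavage factor subunit, at -0.03. Within the cluster the differences were 0.89, 2.05, 0.09 and 2.46 in chromosome order, so Mt3 lay near equality between 2 genes past 2-fold.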
